A study of Sus scrofa with 15 samples.

Results

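The tubular injury and repair genes are a list of 9 genes. CLU, SPP1, VIM, SOX9, ANXA2, KRT8 and KRT18 were listed as genes of the injured and repairing tubule, and UMOD and EGF as genes of the intact nephron. They were chosen by name, and each was read from the probe whose RefSeq accession carries its symbol. A probe was matched for 6 of the 9, out of 3020 genes with a named probe. These 6 were CLU, SPP1, SOX9, ANXA2, KRT8 and EGF. VIM, KRT18 and UMOD had no accession match and were not analysed here, so the comparison of injury genes with nephron genes rested on 5 injury genes and on EGF alone.

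The RNA came from kidneys of 15 female Yorkshire pigs aged 20 weeks, 5 to a group, with 1 array for each pig. Every pig had lost its left kidney 1 week earlier and then underwent 90 minutes of warm ischemia of the remaining right kidney, which was collected at 72 hours. Control pigs had no preconditioning, while rIPCe and rIPCl pigs received remote ischemic preconditioning, given as 2 cycles in which the external iliac artery on the right side was clamped for 10 minutes. In rIPCe the renal ischemia followed at once (the early window), and in rIPCl it followed 24 hours later (the late window). No kidney without ischemia was analysed here, so the values compare injured kidneys with injured kidneys and give no level relative to healthy tissue.

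After ischemia, surviving tubular cells lose part of their mature character, spread over the bared basement membrane, divide and then differentiate again. Cells in this state switch on secreted proteins such as clusterin and osteopontin, the progenitor factor SOX9, annexins and simple epithelial keratins. Epidermal growth factor is made by the thick ascending limb and distal tubule, where its transcript typically falls in injured kidneys. In tissue RNA, fewer cells of a type and less RNA per cell cannot be told apart. On all 15 arrays, 19 of 20 measured genes of the proximal tubule and all 5 of the thick ascending limb were well above background. The same held for all 5 measured genes each of macrophages, endothelium and fibroblasts. On single arrays 62.2% to 74.2% of all spots were well above background, so these counts do not identify the tissue.

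The share of spots well above background ran from 62.2% to 69.5% over the control arrays, from 67.4% to 73.9% in rIPCe and from 71.8% to 74.2% in rIPCl, and its part in the results below was not tested. The arrays lay on 4 slides. Controls 1 to 4 filled 1 slide, control 5 shared a slide with rIPCe 1 to 3, rIPCe 4 and 5 shared a slide with rIPCl 1, and rIPCl 2 to 5 filled the last, so slide and group can hardly be told apart. No slide held both control and rIPCl arrays. All values below are log2 signals after quantile normalization, which gives every array the same distribution, and a difference of 1 is a doubling. Each gene was read from its brightest probe.

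Clusterin was the injury gene that differed most clearly. CLU, which encodes a secreted chaperone shed by damaged tubular cells, was higher in rIPCl than in control by 2.02 on the log2 scale. SOX9 was also higher on average after preconditioning. ANXA2 was lower in rIPCl than in every control on its brightest probe, though not on its others. SOX9, ANXA2 and the other members did not pass the test. Of the 6 members, 1 passed an adjusted p of 0.05 between rIPCl and control, beside 6.27% of all 43603 probes. The count is a single gene, too few to set the list apart from that background.

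In the control kidneys the CLU log2 signal was 16.20, 13.42, 14.82, 15.28 and 14.30. The rIPCe kidneys gave 15.63, 17.05, 16.91, 16.37 and 15.48, and the rIPCl kidneys 17.02, 16.59, 16.85, 16.96 and 16.68. All 5 rIPCl arrays lay above all 5 controls, and the highest control, number 1, reached into the rIPCe values. The mean was 14.80 ± 1.04 (SD, n = 5) in control, 16.29 ± 0.72 in rIPCe and 16.82 ± 0.18 in rIPCl. The rIPCl kidneys were therefore 4.05-fold above control (log2 difference 2.02, 95% confidence interval 1.08 to 2.96; limma, two-sided, adjusted p = 0.0277). The rIPCe kidneys differed from control by 1.48 (interval 0.54 to 2.42, limma adjusted p = 0.206), with 3 of 5 arrays above every control. Both comparisons used the same 5 control kidneys. Between rIPCl and rIPCe the difference in CLU was 0.53 (interval -0.41 to 1.47, limma adjusted p = 0.979).

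The CLU call was close to the threshold. It was lost in the methods' t-test (adjusted p = 0.0563) and with the replicate number as a block (limma adjusted p = 0.0518), and again, at limma adjusted p-values of 0.0571 to 0.065, without control 2, control 3, rIPCl 3, rIPCl 4 or rIPCl 5 (difference 1.67 without control 2), and over all 27 alternatives the adjusted p ran from 0.00505 to 0.279, while CLU was higher in rIPCl under each of them. With slide as a block the difference was 3.33. Group differences in that fit come only from slides that held more than 1 group. Its only control is thus control 5, and its only rIPCl array rIPCl 1. With slide as a random block the CLU difference was 2.20 at limma adjusted p = 0.222. Within the slide that held both groups, the mean of 3 rIPCe arrays was 2.23 above control 5, and within the slide of rIPCl 1 and 2 rIPCe arrays rIPCl 1 was 1.09 higher.

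**Figure D1:**
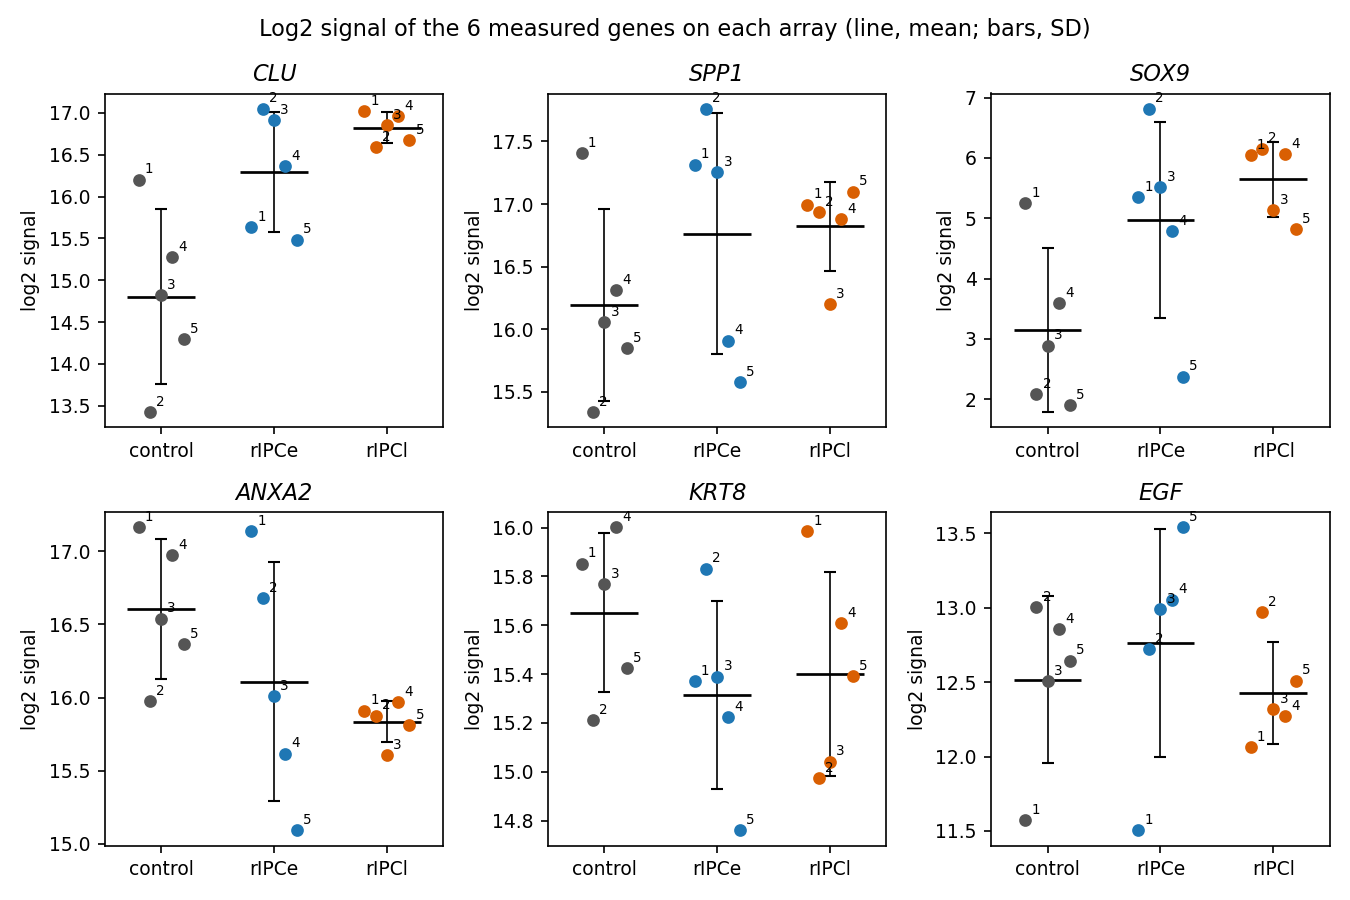
Log2 signal (vertical axis) of the 6 measured genes on each array of the control, rIPCe and rIPCl groups (horizontal axis), with array numbers beside the points, a line at the group mean and bars of 1 SD; each panel has its own vertical scale. The rIPCl points of CLU lie close together between 16.59 and 17.02, above all 5 controls, and those of ANXA2 between 15.61 and 15.97, below all 5. Each gene is shown by its brightest probe, and the ANXA2 groups overlapped on its other probes.

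SPP1 encodes osteopontin, a secreted matrix protein that binds integrins and attracts macrophages. Its log2 signal was 17.40, 15.34, 16.06, 16.31 and 15.85 in control, 17.32, 17.76, 17.26, 15.91 and 15.58 in rIPCe, and 17.00, 16.93, 16.20, 16.88 and 17.10 in rIPCl. The groups overlapped widely, because control 1 lay above every rIPCl kidney and rIPCe split into 3 high and 2 low arrays. The mean difference from control was 0.63 in rIPCl (interval -0.31 to 1.57, limma adjusted p = 0.377) and 0.57 in rIPCe (interval -0.37 to 1.51, limma adjusted p = 0.571). The 4 SPP1 probes gave 0.60 to 0.67 for rIPCl against control.

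SOX9, a transcription factor of progenitor cells that is switched on in regenerating tubule, had the largest mean difference but a dim probe. Its log2 signal was 5.25, 2.08, 2.89, 3.60 and 1.91 in control, 5.36, 6.82, 5.52, 4.78 and 2.37 in rIPCe, and 6.04, 6.15, 5.14, 6.06 and 4.82 in rIPCl. The probe was well above background on control 1 only among the controls, on 4 of 5 rIPCe arrays and on all 5 rIPCl arrays. Control 1 overlapped the rIPCl values, and the other 4 controls lay below all of them. The difference was 2.50 in rIPCl (interval 0.88 to 4.11, limma adjusted p = 0.0597) and 1.82 in rIPCe (interval 0.21 to 3.44, limma adjusted p = 0.302), neither of which passed. Because 4 control values were not measured above background, the size of this difference is uncertain. It was 0.66 after normexp background correction (limma adjusted p = 0.0612), which adds 50 to every signal and so shrinks differences between dim ones. The SOX9 difference was 3.04 with slide as a random block and 6.46 with slide as a block, and the adjusted p ran from 0.0192 to 0.241 over 27 alternatives. It passed in 5 of them, including the fits without control 1 (difference 3.02, limma adjusted p = 0.0249) and without rIPCe 5 (2.50, limma adjusted p = 0.0389).

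The differences between rIPCl and rIPCe were 0.06 for SPP1 (interval -0.88 to 1.00) and 0.67 for SOX9 (interval -0.94 to 2.29). On the slide shared by control 5 and rIPCe 1 to 3, the rIPCe mean was 1.60 higher for SPP1 and 3.99 higher for SOX9. On the slide shared by rIPCl 1 and the lower rIPCe arrays, 4 and 5, rIPCl 1 was 1.25 higher for SPP1 and 2.47 higher for SOX9.

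ANXA2 encodes annexin A2, a calcium-dependent membrane protein of the cortical actin network and a surface receptor for plasminogen. The control kidneys gave 17.16, 15.97, 16.54, 16.97 and 16.37, the rIPCe kidneys 17.14, 16.68, 16.01, 15.62 and 15.09, and the rIPCl kidneys 15.91, 15.88, 15.61, 15.97 and 15.81. On this brightest probe every rIPCl value lay below every control value, but the lowest control (15.974) and the highest rIPCl array (15.968) nearly touched. On its other probes the groups overlapped, with 3 of 5 rIPCl arrays below every control on each. The mean of rIPCl minus control was -0.77 (interval -1.48 to -0.06, limma adjusted p = 0.155), which did not pass over all probes. In rIPCe the difference was -0.50 (interval -1.21 to 0.21, limma adjusted p = 0.512). The 3 ANXA2 probes gave -0.76 to -0.77 for rIPCl. With slide as a block the sign turned, to 0.80 for rIPCl against control and 0.24 for rIPCe against control. In that fit the only control was control 5 and the only rIPCl array rIPCl 1.

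KRT8 encodes keratin 8, an intermediate filament protein of simple epithelia. Its log2 signal was 15.85, 15.21, 15.77, 16.00 and 15.43 in control, 15.37, 15.83, 15.39, 15.22 and 14.76 in rIPCe, and 15.99, 14.97, 15.04, 15.61 and 15.39 in rIPCl. The groups overlapped throughout. KRT8 differed from control by -0.25 in rIPCl (interval -0.75 to 0.24, limma adjusted p = 0.511) and by -0.34 in rIPCe (interval -0.83 to 0.16, limma adjusted p = 0.526). With slide as a block, where the only control was control 5 and the only rIPCl array rIPCl 1, these differences became 1.10 and 0.11. Its 3 probes gave -0.19 to -0.27 in rIPCl.

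EGF, the nephron gene, encodes the precursor of epidermal growth factor. Its log2 signal was 11.57, 13.00, 12.51, 12.86 and 12.64 in control, 11.50, 12.72, 12.99, 13.05 and 13.54 in rIPCe, and 12.06, 12.97, 12.32, 12.27 and 12.51 in rIPCl. The lowest values came from control 1 and rIPCe 1, and the highest from rIPCe 5. The difference from control was -0.09 in rIPCl (interval -0.84 to 0.66, limma adjusted p = 0.898) and 0.25 in rIPCe (interval -0.50 to 0.99, limma adjusted p = 0.783). Its other probes gave -0.19 and -0.45 in rIPCl, and 0.11 and -0.15 in rIPCe, so that the probes differed in sign in rIPCe. The intervals are wide enough to hold a difference of 0.66 upward or 0.84 downward in rIPCl.

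**Figure D2:**
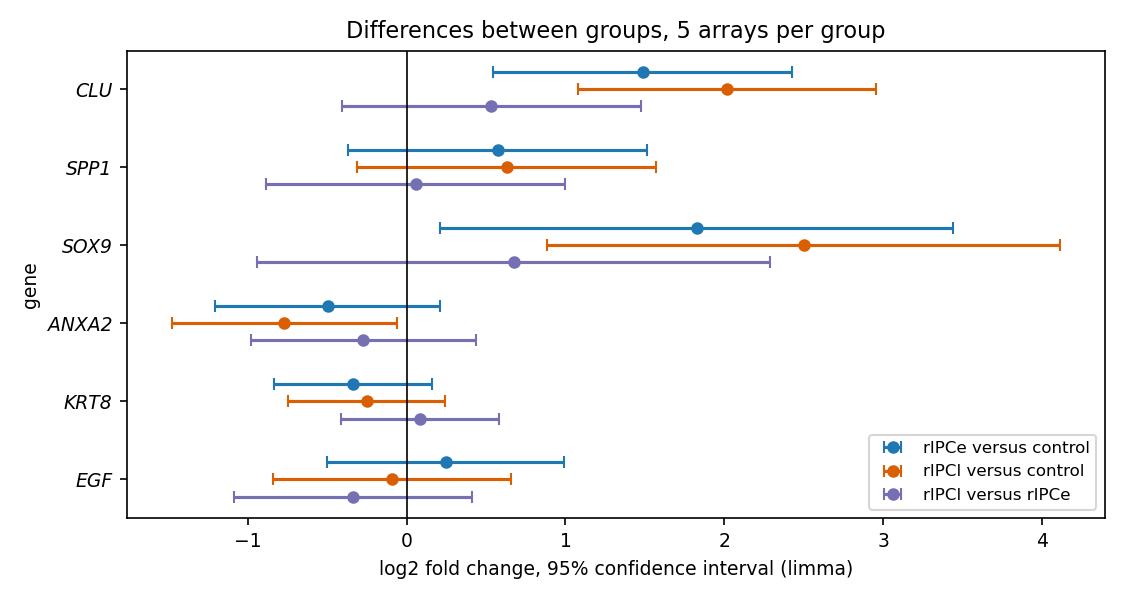
Log2 fold change (horizontal axis, points) with 95% confidence intervals from limma (bars) for the 6 genes (vertical axis) in rIPCe versus control, rIPCl versus control and rIPCl versus rIPCe. For rIPCl versus control the intervals of CLU (1.08 to 2.96) and SOX9 (0.88 to 4.11) lie above 0 and that of ANXA2 (-1.48 to -0.06) below it.

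Counted together, 3 of the 6 members had an unadjusted limma p under 0.05 between rIPCl and control, beside 26.8% of all probes, and 2 of 6 had non-overlapping arrays, beside 9.48%. Those 2 were CLU and ANXA2, and the separation of ANXA2 held only on its brightest probe. In rIPCe against control, limma called 0 of 6 members, beside 0.00229% of all probes, and the methods' t-test also called 0. At an unadjusted p under 0.05 the count was 2 of 6, CLU and SOX9, beside 14.1%, and 0 of 6 had non-overlapping arrays, beside 3.3%. Between rIPCl and rIPCe both tests called 0 of 6 members, beside 0% of all probes in limma, with 0 of 6 at an unadjusted p under 0.05, beside 3.85%, and 0 of 6 with non-overlapping arrays, beside 0.713%. The median log2 difference of the 5 injury genes was 0.63 in rIPCl and 0.57 in rIPCe, beside -0.03 and -0.01 over all probes. With each array scaled to its 75th percentile the median over all probes was -0.11 in rIPCl, and all 6 members kept their sign.

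For most members the rIPCl values lay closer together than those of the other groups. The range of the 5 rIPCl values was 0.43 for CLU, against 2.78 in control and 1.57 in rIPCe, and 0.36 for ANXA2, against 1.19 and 2.05. It was narrower than the control range for 5 of 6 members, KRT8 being the exception, and narrower than the rIPCe range for 6 of 6. The same held for 55.9% and 58.9% of all probes, and among probes well above background on all arrays for 48% and 56%. With 5 arrays a group these ranges were compared without a test.

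To set injury genes against the nephron gene, an index was taken as the mean of the 5 injury genes minus EGF, each gene centred on its mean over the 15 arrays. It was -0.43 ± 1.27 (SD, n = 5) in control, -0.06 ± 1.39 in rIPCe and 0.49 ± 0.49 in rIPCl, and the groups overlapped. The kidneys of control 1 (1.61) and rIPCe 1 (1.47) had the highest index of all, and control 2 (-1.79) and rIPCe 5 (-2.07) the lowest. The rIPCl kidneys lay between -0.06 and 1.14, inside the range of both other groups. The differences of the means were 0.92 for rIPCl against control, 0.36 for rIPCe against control and 0.55 for rIPCl against rIPCe. Without SOX9, whose probe was at background on 4 controls, they were 0.50, 0.06 and 0.44. After normexp background correction, where the added 50 shrinks the SOX9 differences, they were 0.58, 0.17 and 0.41. Each difference was smaller than the SD of the index among control kidneys, and leaving out 1 array at a time moved them between 0.58 and 1.43, between -0.02 and 0.87, and between 0.05 and 0.94.

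**Figure D3:**
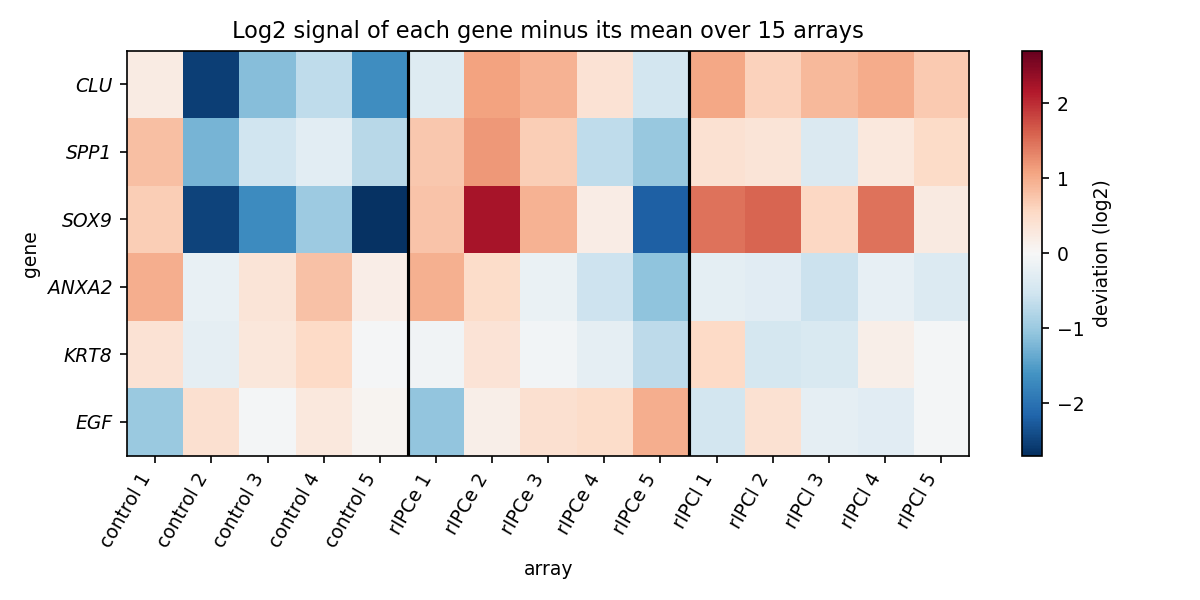
Deviation of the log2 signal from the gene's mean over 15 arrays (colour, red above and blue below the mean) for the 6 genes (rows) on each array (columns), with black lines between groups. Control 1 is above the mean for all 5 injury genes and below it for EGF, rIPCe 5 shows the opposite, and in rIPCl CLU and SOX9 are above and ANXA2 below their means on all 5 arrays.

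Over the 15 arrays, 4 of the 10 pairs of injury genes correlated at an adjusted p under 0.05 (permutation test with 100000 resamples, two-sided, Benjamini-Hochberg over the 10 pairs). The resampling ignored the groups, so a difference between groups shared by both genes enters these p-values and those with EGF below. CLU correlated with SOX9 at r = 0.893 (Spearman rho = 0.857, adjusted permutation p = 0.0002 and 0.0004; r = 0.834 without control 2 and control 5). SPP1 correlated with SOX9 at r = 0.848 (rho = 0.779, adjusted permutation p = 0.00055 and 0.00465; r = 0.788 without the same arrays) and with CLU at r = 0.708 (rho = 0.636, adjusted permutation p = 0.0103 and 0.0325; r = 0.582 without control 2 and rIPCe 5). ANXA2 correlated with KRT8 at r = 0.686 (rho = 0.65, adjusted permutation p = 0.0132 and 0.0325; r = 0.503 without control 4 and rIPCe 5).

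The SOX9 values enter these relations with 5 arrays on which its probe was not well above background, controls 2 to 5 and rIPCe 5. Over the other 10 arrays, chosen after seeing the data, r with SOX9 was 0.475 for CLU (rho = 0.564, adjusted permutation p = 0.333 and 0.382 over 4 relations) and 0.543 for SPP1 (rho = 0.358, adjusted permutation p = 0.333 and 0.418), and neither relation passed there. Choosing arrays by their SOX9 signal narrows its range and leaves fewer arrays, which tends to lower r and power. The loss therefore cannot decide whether the relations hold. The other 6 pairs did not pass over all 15 arrays. They ran from r = -0.17 for CLU with ANXA2 (rho = -0.211, adjusted permutation p = 0.678 and 0.602; r = -0.208 without control 1 and rIPCe 1) to r = 0.461 for SPP1 with ANXA2 (rho = 0.482, adjusted permutation p = 0.163 and 0.14; r = 0.274 without the same arrays).

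After the group means were subtracted, r was positive in all 10 pairs, from 0.499 for CLU with ANXA2 to 0.865 for SPP1 with SOX9, a description with no test. The 2 measures of a pair share an array and its hybridization, and a group or slide holds too few arrays for a correlation of its own.

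EGF ran against the injury genes, with negative r for all 5 and 0 of 5 passing after adjustment. The strongest relation was with ANXA2 (r = -0.622, rho = -0.443, permutation p = 0.0131 and 0.0991, adjusted p = 0.0653 and 0.165). It fell to r = -0.271 without control 1 and rIPCe 1, the arrays with the least EGF, and rests on them. For SPP1 r was -0.544 (rho = -0.532, permutation p = 0.0366 and 0.0443, adjusted p = 0.0915 and 0.165), or -0.385 without the same arrays. KRT8 gave r = -0.484 (rho = -0.486, adjusted permutation p = 0.115 and 0.165) and -0.576 without them.

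The relation of EGF with SOX9 had r = -0.395 (rho = -0.346, adjusted permutation p = 0.183 and 0.257), or -0.398 without those arrays, and that with CLU r = -0.204 (rho = -0.246, adjusted permutation p = 0.465 and 0.374), or -0.337. With group means subtracted the 5 values ran from -0.783 for ANXA2 to -0.348 for CLU. The count of pairs that passed was not stable, rising to 2 of 5 without rIPCe 2 or without rIPCe 3, and to 1 without control 4, rIPCl 1 or rIPCl 3.

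**Figure D4:**
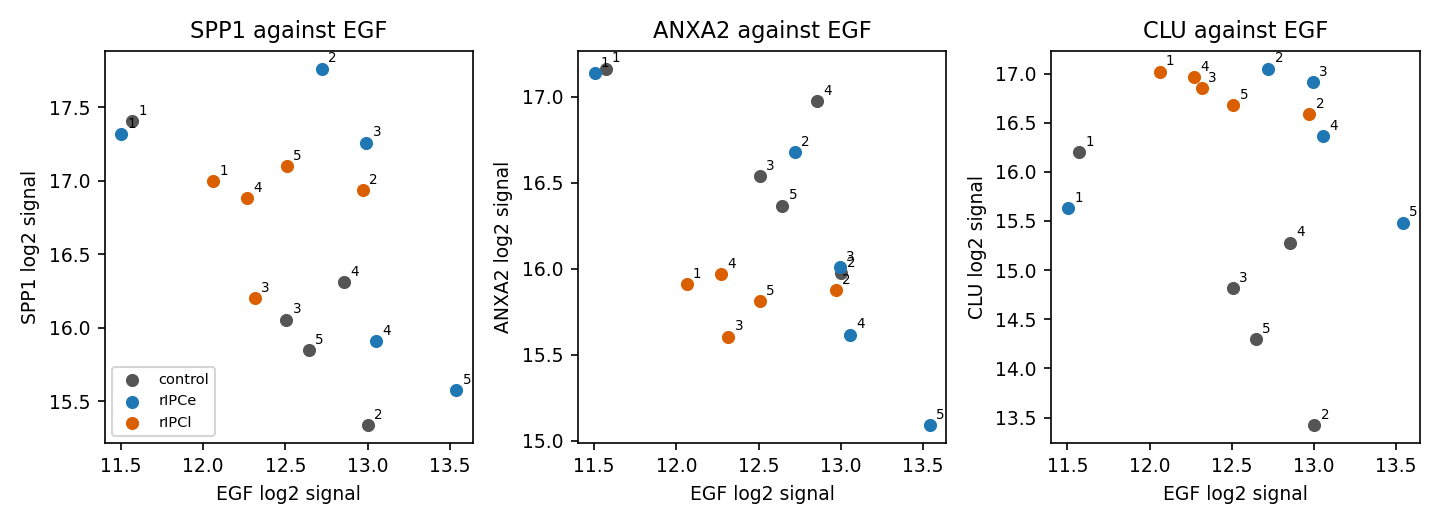
Log2 signal of SPP1, ANXA2 and CLU (vertical axes) against that of EGF (horizontal axis) on the 15 arrays, coloured by group and numbered within it. Control 1 and rIPCe 1 stand at the left with little EGF and high ANXA2 and SPP1; r is -0.544 for SPP1, -0.622 for ANXA2 and -0.204 for CLU, and 0 of 5 relations passed after adjustment.

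Other genes followed the members closely across the 15 arrays, among 2567 genes compared and as a description with no test. The highest Pearson r for CLU was with SAA3 (0.92), SERPINB10 (0.903) and RPL36AL (0.894), and for SPP1 with RAD54L (0.924), CFL2 (0.918) and ANXA1 (0.915). SOX9 was most like CCL2 (0.937), which encodes a monocyte chemokine, PLAU (0.932), which encodes urokinase, and ANXA1 (0.914), over arrays that include the 5 on which SOX9 was at background. ANXA2 was most like RARS (0.931), EEF1E1 (0.931) and HNRNPAB (0.92), and KRT8 like PPIA (0.892), MYL6 (0.865) and LRRC59 (0.844). For EGF the closest were SERPINC1 (0.826), SLC34A1 (0.794), the sodium-phosphate cotransporter of the proximal tubule, and NAXD (0.788).

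The rest of the injury response was read from a wider list of 43 genes, 19 of them measured. In rIPCl against control 2 of 19 rose and 0 fell at an adjusted p under 0.05, beside 6.27% of all probes that passed in either direction, the share against which the counts of the lists below also stand. With slide as a random block 0 of 43603 probes passed in this comparison, so that every call on a list gene given here and below was lost. The genes that rose were the leukocyte adhesion molecules VCAM1 (by 1.57, limma adjusted p = 0.021) and ICAM1 (by 1.05, limma adjusted p = 0.0395), and the protease inhibitor TIMP1 was 1.10 higher at an adjusted p of 0.0513. S100A6, a calcium-binding protein gene named after its values were seen, was as near to the threshold in the other direction (-0.98, limma adjusted p = 0.0509), with all 5 rIPCl arrays below all controls. The median of the 19 was 0.53. In rIPCe 0 of 19 passed in limma, with 3 at an unadjusted p under 0.05 beside 14.1% of all probes, and the median was 0.22.

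Osteopontin's receptors were represented by 5 of 8 genes, of which 0 passed in either comparison in limma and 2 had an unadjusted p under 0.05 in each. The share of all probes at that unadjusted p was 26.8% in rIPCl and 14.1% in rIPCe. ITGAV, the alpha v chain, was 0.35 higher in rIPCl (limma adjusted p = 0.107) and 0.44 higher in rIPCe (0.203), and ITGB1 0.09 and 0.10 higher. ITGB3 was 0.17 and 0.21 higher without overlap with control, beside 9.48% of all probes in rIPCl and 3.3% in rIPCe. Its probe was very bright, with group means of 18.773 to 18.985 and SDs of 0.03 to 0.08. Of the ligands and receptors of the EGF family 4 of 10 were measured, and 0 passed in limma, also at an unadjusted p. The receptor EGFR itself differed by 0.19 in rIPCl and 0.16 in rIPCe, TGFA by -0.17 and -0.08, and AREG was well above background on 1 array of 15.

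EGF was set beside the other nephron genes. Of 20 measured proximal tubule genes 3 fell and 0 rose in rIPCl: the amino acid transporter gene SLC7A9 (-1.24, limma adjusted p = 0.0239), the bicarbonate transporter gene SLC4A4 (-1.13, limma adjusted p = 0.0433) and the gluconeogenic FBP1 (-0.91, limma adjusted p = 0.0386). The median of all 20 was -0.55. In the thick ascending limb 0 of 5 passed in limma, with 1 at an unadjusted p under 0.05, beside 26.8% of all probes. That gene was CLDN10 (-0.44, limma adjusted p = 0.167), with CLDN14 at -0.60 and CLDN19 at 0.37. Of 12 distal tubule and collecting duct genes 1 fell, SLC26A4, which encodes pendrin (-2.27, limma adjusted p = 0.0156), beside PVALB at 1.12 and AQP3 at -0.67. In rIPCe 0 genes of these 3 lists passed in limma, with 4 of 37 at an unadjusted p under 0.05, beside 14.1% of all probes.

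Some genes of other cells in the tissue also differed between rIPCl and control in limma, and their part in the CLU difference was not tested. Macrophage markers were measured for 5 of 9, and C1QA (1.65) and MRC1 (1.01) rose in rIPCl, both at limma adjusted p = 0.0244, with CD163 0.90 higher. CD14, named after its values were seen, was the 1 marker of 5 on the other side (-0.12 in rIPCl and -0.57 in rIPCe). The log2 of their summed signal ran from 12.64 to 14.21 in control, 13.33 to 13.96 in rIPCe and 13.44 to 14.69 in rIPCl. All 6 T cell markers were higher in rIPCl, as CD4 (1.50), CD3E (1.40) and CD2 (1.35). In limma 0 passed and 5 had an unadjusted p under 0.05, beside 26.8% of all probes. The sum ran from 8.50 to 10.20 in control, 8.30 to 10.33 in rIPCe and 8.97 to 12.07 in rIPCl. CD4 was well above background on 8 of 15 arrays.

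All 5 measured of 10 fibroblast markers were higher in rIPCl. LUM rose (1.49, limma adjusted p = 0.045), with POSTN at 1.16 and DCN at 0.96. In rIPCe 4 of the 5 were higher, with LUM at 0.96, POSTN at 1.01 and DCN at 0.95. There 0 passed in limma and 3 had an unadjusted p under 0.05, beside 14.1% of all probes. The fibroblast median was 0.955 in rIPCl and 0.945 in rIPCe. Their sum ran from 15.26 to 15.80 in control, 15.48 to 16.60 in rIPCe and 15.36 to 16.52 in rIPCl. Of 5 measured of 7 endothelial markers ENG rose (0.77, limma adjusted p = 0.0433), beside VWF at 0.46 and CLDN5 at -0.32. In rIPCl 2 of these 5 were higher and 3 lower, with a median of -0.03. The sums were 13.89 to 14.45 in control, 13.95 to 14.26 in rIPCe and 13.86 to 14.53 in rIPCl. Neutrophil markers, 3 of 4 measured, did not pass in limma, with 0 also at an unadjusted p under 0.05, beside 26.8% of all probes. S100A9 differed by -0.29, S100A12 by 0.14 and S100A8 by 0.08. The neutrophil sums were 7.08 to 11.01, 7.24 to 9.85 and 7.67 to 10.51 in the same order of groups. The single podocyte marker of 5, WT1, differed by -0.55 (limma adjusted p = 0.259), between 9.03 and 9.83 in control, 8.30 and 10.00 in rIPCe and 8.08 and 9.31 in rIPCl.

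Genes of dividing cells had the largest median difference of the lists measured in rIPCl. All 4 measured of 6 were higher in rIPCl, with a median of 2.32, and CCNB1 (2.87, limma adjusted p = 0.0385) and BIRC5 (1.84, limma adjusted p = 0.0366) rose, with TOP2A 2.34 higher at an adjusted p of 0.0513. The CCNB1 and BIRC5 calls were lost with slide as a random block. In rIPCe 0 of these 4 passed in limma and all 4 had an unadjusted p under 0.05, beside 14.1% of all probes. Their median in rIPCe was 1.82. Their summed log2 signal ran from 10.46 to 12.93 in control, from 11.77 to 14.08 in rIPCe and from 12.83 to 14.10 in rIPCl, so that the highest control array overlapped the rIPCl values.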

How the data were processed

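Kidney RNA was hybridized by the authors to 1-colour Agilent porcine arrays, and the deposited scanner files hold the background-corrected intensity of each spot, made with Agilent Feature Extraction 11.0.1.1 per the labels. The deposited table of 1 intensity per probe equals the mean over its spots (largest relative difference 3.4e-16). Here, spots marked as outliers were left out (182 probes then had a missing value), the log2 of the deposited intensity of 43803 non-control spots was quantile normalized, and spots were averaged to 43603 probes. No spot was saturated. The number of arrays limits the precision. Through RefSeq accessions (table of assembly Sscrofa11.1, names only) 6686 probes matched 3020 genes. A gene was its brightest probe. Groups came from the sample labels.

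A mean per group was fitted over all 15 arrays with limma 3.58.1 in R 4.3.3, two-sided, with Benjamini-Hochberg adjustment over all probes. This took the place of the methods' t-test, which was an alternative. Correlations used scipy 1.17.1 and numpy 2.4.6. The planned 9 genes and 14 relations became 6 genes and 5 relations, because VIM, KRT18 and UMOD matched no probe, and the 10 relations among injury genes were added afterwards, as were the index without SOX9 and the SOX9 relations over the arrays where its probe was above background. The fit and the permutation test were tested on simulated data.

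The members and lists were chosen with earlier results of these data known, so counts over them are descriptions. Named genes were all members, the genes of each list that passed (at most 6, or the 3 largest differences in rIPCl where fewer passed), and for each member the 3 genes of highest r among genes well above background on all arrays of at least 1 group. Alternatives covered scaling, background correction, the deposited table, dim probes, outlier spots, the arrays in the fit, the replicate number, slide, array weights, probe choice, the t-test and leaving out each array.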

Additional observations from a re-analysis of the deposited data

Results flagged for a closer look

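An array was singled out where its gap to the nearest other array of its group was a large part of the group's whole range (Dixon's test at 5 arrays). This held in 11 of 132 groups of values, and chance alone gives about 1 in 20. Among the members it held only for SPP1, where rIPCl 3 had a log2 signal of 16.2 and the next rIPCl kidney 16.88. The genes set beside the members gave the others. In control kidneys, array 1 stood high for C1QA (11.14), CD2 (7.602) and BIRC5 (11.74), and array 4 for CLDN5 (10.11). In rIPCe, array 2 stood high for MRC1 (9.765) and AREG (4.713), and array 3 for CLDN14 (7.604). In rIPCl, array 4 stood high for TOP2A (10.22) and low for WT1 (8.082), and array 2 low for DCN (14.23).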

How the results depend on the processing

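Over 27 alternatives the count of members called between rIPCl and control, which was 1, became 2 with 75th-percentile scaling, 2 with dim probes left out and 3 with array weights, and 0 with slide as a block, slide as a random block or the methods' t-test; leaving out 1 array gave 0 to 2. In the other comparisons it was 0 under every alternative. With the replicate number as a block it was also 0 (CLU 2.02, limma adjusted p = 0.0518), and the probes called over the array went from 2736 to 987. The numbers did not pair the kidneys, since same-numbered arrays deviated with correlations of -0.266 to 0.0732 and 0 arrays correlated best with their own number. Over all probes the count for rIPCl against control was 7728 with 75th-percentile scaling, 10255 with array weights, 1548 with the t-test, 479 with slide as a block and 0 with slide as a random block. Array weights also brought in ANXA2 (limma adjusted p = 0.0467, range over alternatives 0.0467 to 0.68).

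Slide as a block moved the index differences to 4.38 (rIPCl against control), 1.87 (rIPCe against control) and 2.51 (rIPCl against rIPCe). Its differences come only from the slide of control 5 with rIPCe 1 to 3 and that of rIPCl 1 with rIPCe 4 and 5. For rIPCl against control they set control 5 against rIPCl 1 through rIPCe. Slide as a block turned the sign of ANXA2 in the same 3 comparisons (0.80, 0.24 and 0.56), of KRT8 in the first and second (1.10 and 0.11) and of EGF in rIPCe against control (-0.24). These sign changes rest on 1 control and 1 rIPCl array. Leaving out 1 array gave -0.33 to 0.0317 for EGF in rIPCl against control, -0.24 to 0.31 for SPP1 and -0.0611 to 0.22 for KRT8 in rIPCl against rIPCe. The count of relations with EGF that passed was 1 after normexp, chosen after seeing the data and run on median spot signals, and 0 to 2 without 1 array. The relations of CLU and SPP1 with SOX9 no longer passed over the 10 arrays with SOX9 above background. That choice narrows the SOX9 range and drops arrays, so the loss cannot decide whether the relations hold.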
